A study of Mus musculus with 32 samples.

Results

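Chemokines are small secreted proteins that draw leukocytes along a concentration gradient by binding receptors with a membrane-spanning fold on the target cell. The genes described here are 9 chemokine ligands, taken by symbol from the count tables of a liver and a heart cell line, out of 56221 gene IDs listed in either table. They are Cxcl1, Cxcl2, Cxcl5 and Ppbp, which draw mainly neutrophils through Cxcr2; Ccl2 and Ccl7, which draw monocytes through Ccr2; Ccl3 and Ccl5, which draw monocytes and T cells; and Ccl20, the ligand of Ccr6. All 9 had counts in the liver line and 7 in the heart line, where Cxcl2 and Ccl20 had 0 counts in every library. In many cell types these genes are induced by cytokines and microbial products through NF-kB and AP-1, and their mRNAs are short-lived. Glucocorticoids are known to repress many of them, and hepatocytes and cardiac cells are known to produce several when stressed.

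The series holds 32 RNA-seq libraries in 8 groups of 4. Cells of AML12, a mouse hepatocyte line, were either controls or given a treatment that the labels write as DEX without naming a compound, and were collected at 17 h or 25 h. Cells of HL-1, a mouse cardiomyocyte line, were collected at 16 h or 28 h after culture in AML12-derived medium. For the HL-1 controls the medium lacked DEX synchronization, while the other HL-1 cells had conditioned medium (CM) with it. All HL-1 cells, controls included, therefore had AML12 medium. Each line is a single cell line, and no label ties the 4 libraries in a group to separate cultures. The p-values thus reflect nothing but the spread among the libraries sequenced, possibly a technical one. Levels are in CPM, counts-per-million of the library's total after TMM scaling. All fold changes and differences of effects are on the log2 scale, and the value after their ± is the standard error from edgeR's quasi-likelihood test, and a gene is called higher or lower when its Benjamini-Hochberg adjusted p over all genes tested is under 0.05. In bulk RNA, fewer expressing cells and less RNA per cell cannot be told apart.

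Library totals lay between 15032450 and 17472840 counts in AML12 and between 15734197 and 19304043 counts in HL-1, where the CM groups were deeper than their controls on average and, at 16 h, library by library. Agreement within groups was read as a chi-square per degree of freedom between libraries, pair by pair. AML12 DEX 17 h replicate 2 and HL-1 control 16 h replicate 3 stood apart, at 13.6 to 18.1 and 8.05 to 16.6. The other pairs of these groups lay at 2.41 to 4.00 and 2.73 to 5.58. AML12 DEX 25 h replicate 4 differed more mildly (3.90 to 5.06, against 2.31 to 3.69). In HL-1 CM 28 h the pairs spread from 3.39 to 9.74, the highest between replicates 2 and 4. In HL-1 CM 16 h pairs with replicate 2 reached 7.24, against at most 3.74 without it. Leukocyte markers, which would show other chemokine-producing cells, summed to 8.41 to 15.2 CPM in AML12 libraries and to 1.69 to 3.34 CPM in HL-1 libraries. The macrophage gene Adgre1 was at 0 in all 32, but 6 to 8 of the 10 markers had counts in an AML12 group and 5 to 7 in an HL-1 group. A mean of 1 CPM was reached by 2 markers in each AML12 group and 1 in each HL-1 group, and 10 CPM by 1 in AML12 DEX 25 h. Of 10 hepatocyte markers 9 had counts in each AML12 group, with Cyp3a11 at 0. A mean of 1 CPM was reached by 4 of the 10 in each control group, 6 in DEX 17 h and 7 in DEX 25 h. In each AML12 group 3 of them reached 10 CPM. Of 10 cardiomyocyte markers 5 to 9 had counts in an HL-1 group, with Mybpc3 at 0 in all 4 groups and Myh6 and Nppa at 0 in both control groups. In each HL-1 group only 3 of the 10 reached a mean of 1 CPM, and 1 reached 10 CPM. These markers summed to 29.6 to 60.1 CPM in HL-1 libraries and to 51.6 to 72.6 CPM in AML12 libraries. Their sum thus did not set HL-1 apart as the cardiac line. The fibroblast markers were the larger signal in HL-1, at 1799.8 to 3329 CPM in sum.

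Most of the 9 genes lie in 3 clusters of the GRCm38 genome (GENCODE M21 annotation). On chromosome 5, Cxcl5 (90759360 to 90761624), Ppbp (90768518 to 90770063), Cxcl1 (90891241 to 90893115) and Cxcl2 (90903871 to 90905938) share the plus strand within 146.6 kb. On chromosome 11, Ccl2 (82035571 to 82037453) and Ccl7 (82045712 to 82047525) are neighbours on the plus strand within 12.0 kb, with 0 coding genes between them. Ccl5 (83525778 to 83530518) and Ccl3 (83647844 to 83649355) follow on the minus strand of the same chromosome. Ccl20 lies alone on chromosome 1 (83116766 to 83119167, plus strand). The predicted gene Gm17268 overlaps Ccl2 but had at most 2 counts in any library.

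Promoter windows of RefSeq genes (GRCm38.p6, 250 bases before to 50 after the start) were at hand for 5 of the 9 genes: Cxcl1, Cxcl2, Ppbp, Ccl3 and Ccl20. The 3 promoters printed next are those with a match to the NF-kB consensus, searched on both strands, and the capitals mark it. The lines give the 200 bases upstream of the annotated gene, from chr5:90891041-90891240, chr5:90903671-90903870 and chr1:83116566-83116765, plus strand.
Cxcl1: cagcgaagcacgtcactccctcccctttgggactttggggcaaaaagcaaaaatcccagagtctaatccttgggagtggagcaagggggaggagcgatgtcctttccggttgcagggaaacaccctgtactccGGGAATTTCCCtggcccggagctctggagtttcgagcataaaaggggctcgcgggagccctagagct
Cxcl2: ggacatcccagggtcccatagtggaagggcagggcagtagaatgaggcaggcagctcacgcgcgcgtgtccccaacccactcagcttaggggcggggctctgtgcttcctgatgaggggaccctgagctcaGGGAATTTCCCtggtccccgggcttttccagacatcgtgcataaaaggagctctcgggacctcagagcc
Ccl20: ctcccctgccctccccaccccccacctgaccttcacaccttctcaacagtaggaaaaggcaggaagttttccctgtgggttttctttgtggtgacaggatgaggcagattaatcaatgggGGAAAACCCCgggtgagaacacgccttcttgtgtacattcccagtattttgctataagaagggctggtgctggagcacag
The Cxcl1 and Cxcl2 promoters carry the same letters in capitals. Their shared kB site, read without the last of these letters, is held on either strand by 0.0883% of 32851 windows of this length, and by 2 of the 5 member windows. The looser consensus was in 3 of the 5 member windows and in 8.46% of all windows. TGANTCA, the letters AP-1 factors bind, was in 1 of the 5 (Ppbp) and in 7.81% of all. AGAACA, an arm of the element that glucocorticoid receptors bind, was in 2 of the 5 (Ccl20 and Ppbp) and in 19.0% of all. CACGTG, the E-box bound by clock factors among others, was in 0 of the 5 and in 7.15% of all. TATAAA, the core TATA box, was in 1 of the 5 (Ppbp) and in 13.6% of all. All these searches were likewise on both strands, so the share for TATAAA also takes in windows that hold it on the opposite strand. A match is a description of the letters only.

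Short mRNA life is often tied to ATTTA pentamers in the 3′ end of a transcript, which decay factors such as Zfp36 bind. The windows below show the densest 30 bases of the 4 genes with the most pentamers for their length, in the M21 transcripts, with each ATTTA in capitals.
Cxcl1: gagggtcctATTTATTTAtgtATTTATTTA
Cxcl2: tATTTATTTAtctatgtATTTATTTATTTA
Ccl3: gactcttcacttgaaattttATTTAATTTA
Ccl20: tgtaaagatATTTAatgttctgtttATTTA
The 3′ ends held 11 pentamers in Cxcl2, 9 in Ccl20, 7 in Cxcl1, 5 each in Cxcl5 and Ccl3, 2 in Ccl7, 1 each in Ppbp and Ccl2 and 0 in Ccl5. Per 1000 bases this was 15.0 in Cxcl2, 12.2 in Ccl3, 11.8 in Cxcl1 and 8.57 in Ccl20, against a median of 1.14 over 21039 genes. The longer TTATTTATT was found 4 times in Cxcl2 and 2 times in Cxcl1, and at least once in 6.97% of the 21039 genes.

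In AML12 control cells the chemokines spanned more than 3 orders of magnitude. Per kilobase of exon, Cxcl5 (1194 ± 35.0 CPM per kb, mean ± SD, n = 4) and Ccl2 (1120.5 ± 43.9) led at 17 h, and their libraries overlapped. They were followed by Cxcl1 (142 ± 10.0), Ccl20 (60.5 ± 4.16), Ccl7 (26.0 ± 1.87), Ppbp (7.48 ± 0.562) and Cxcl2 (3.38 ± 0.309). Ccl3 (0.772 ± 0.137) and Ccl5 (0.762 ± 0.0452) came last and did not differ beyond their spread. The other 3 AML12 groups had the same order for the ranks from Cxcl1 to Cxcl2, with Ccl2 above Cxcl5. Cxcl2 has the same kB site letters as Cxcl1, though not the same promoter around them. It is also nearest to Cxcl1 on the chromosome among the 9, and was far below it in each group. Summed over the 9 genes, the level was 3890 ± 112 CPM in controls at 17 h, 1658 ± 90.9 CPM in DEX cells at 17 h, 4050 ± 164 CPM in controls at 25 h and 3851 ± 280 CPM in DEX cells at 25 h. Cxcl5 alone made up 57.2, 47.4, 51.6 and 50.3% of these sums.

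The question of the first comparison was how DEX-treated AML12 cells differ from control cells at 17 h. All 9 chemokine genes were lower in DEX cells, with the 4 DEX libraries below the 4 controls for each gene. How many of all genes had groups apart in this way was not counted, here or in the later comparisons. Of all 14114 genes tested 38.4% were called in this comparison, 20.5% higher and 17.9% lower. The log2 fold changes ran from -0.67 in Cxcl1 to -4.71 in Ccl3, which is a fitted value over 1 DEX count and was -6.30 without DEX replicate 3, the library that held it. In a fit of the compared libraries alone Ccl3 was too rare to be tested, and the other 8 were called lower. Over the 9 genes the printed fold changes had a median of -1.74 against 0.00 over all genes tested. The members, and the gene lists used below, were chosen with earlier results of these data known. Their counts and medians are therefore set beside those of all genes as a description only.

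Among the neutrophil ligands, Cxcl5, the most abundant, stood at 2296, 2141, 2248 and 2215 CPM in the 4 controls and at 734, 806, 789 and 810.5 CPM in the DEX libraries. Every DEX library was thus far below the lowest control, and the groups were tight. The log2 fold change was -1.50 ± 0.05 (adjusted p = 1.16e-16), a fall by 64.7%. Ppbp, the precursor of the platelet chemokine Cxcl7, had 8.34, 7.66, 8.85 and 7.56 CPM in controls and 2.60, 1.90, 2.20 and 2.90 CPM in DEX cells. The groups were again far apart, with a fold change of -1.75 ± 0.14 (adjusted p = 6.67e-10). Cxcl1, a main neutrophil attractant of the mouse, stood at 271, 251, 254 and 292 CPM in controls and 152, 201, 148 and 174 CPM with DEX. The highest DEX value was that of replicate 2, the library that stood apart, and it was still below all controls. The log2 fold change was the smallest of the 9, at -0.67 ± 0.07 (adjusted p = 4.16e-08). Cxcl2, which shares its receptor with Cxcl1, had 7.83, 7.01, 6.28 and 6.86 CPM in controls and 4.05, 5.01, 3.11 and 3.58 CPM with DEX. The groups did not overlap, again with replicate 2 as the highest DEX library, and the fold change was -0.83 ± 0.15 (adjusted p = 6.82e-05).

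The monocyte ligands fell as well. Ccl2, also known as MCP-1, stood at 1262, 1219.9, 1278 and 1340.2 CPM in controls and 628, 715, 665 and 687 CPM with DEX. All DEX libraries were well below all controls, and the fold change was -0.92 ± 0.05 (adjusted p = 2.22e-13). Ccl7, its neighbour with overlapping receptor use, stood at 21.8, 18.7, 20.7 and 22.0 CPM and 7.32, 5.26, 5.25 and 6.97 CPM. The change in Ccl7, -1.74 ± 0.13 (adjusted p = 1.55e-10), was larger on the log2 scale than that in Ccl2, although the difference between these 2 genes was not tested.

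Ccl20, which draws Ccr6-bearing lymphocytes and dendritic cells, had 85.0, 82.6, 81.8 and 94.7 CPM in controls and 17.8, 16.7, 16.3 and 22.2 CPM in DEX cells. All DEX libraries lay far below the lowest control, and the fold change was -2.24 ± 0.08 (adjusted p = 3.1e-16). Ccl3, also called MIP-1 alpha, was rare, with 10, 7, 10 and 12 counts in controls and 0, 0, 1 and 0 counts with DEX. As 39 against 1 counts in sum this was a ratio of 38.5 of control over DEX, with an exact 95% interval of 6.52 to 1560 that covers counting error only, and the test over all genes gave an adjusted p of 2.04e-06. Ccl5, also called RANTES, had 11, 12, 12 and 13 counts in controls and 1, 1, 1 and 3 counts with DEX. Few as these counts are, all DEX libraries lay below all controls, and the fold change was -2.88 ± 0.49 (adjusted p = 3.91e-05).

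**Figure D1:**
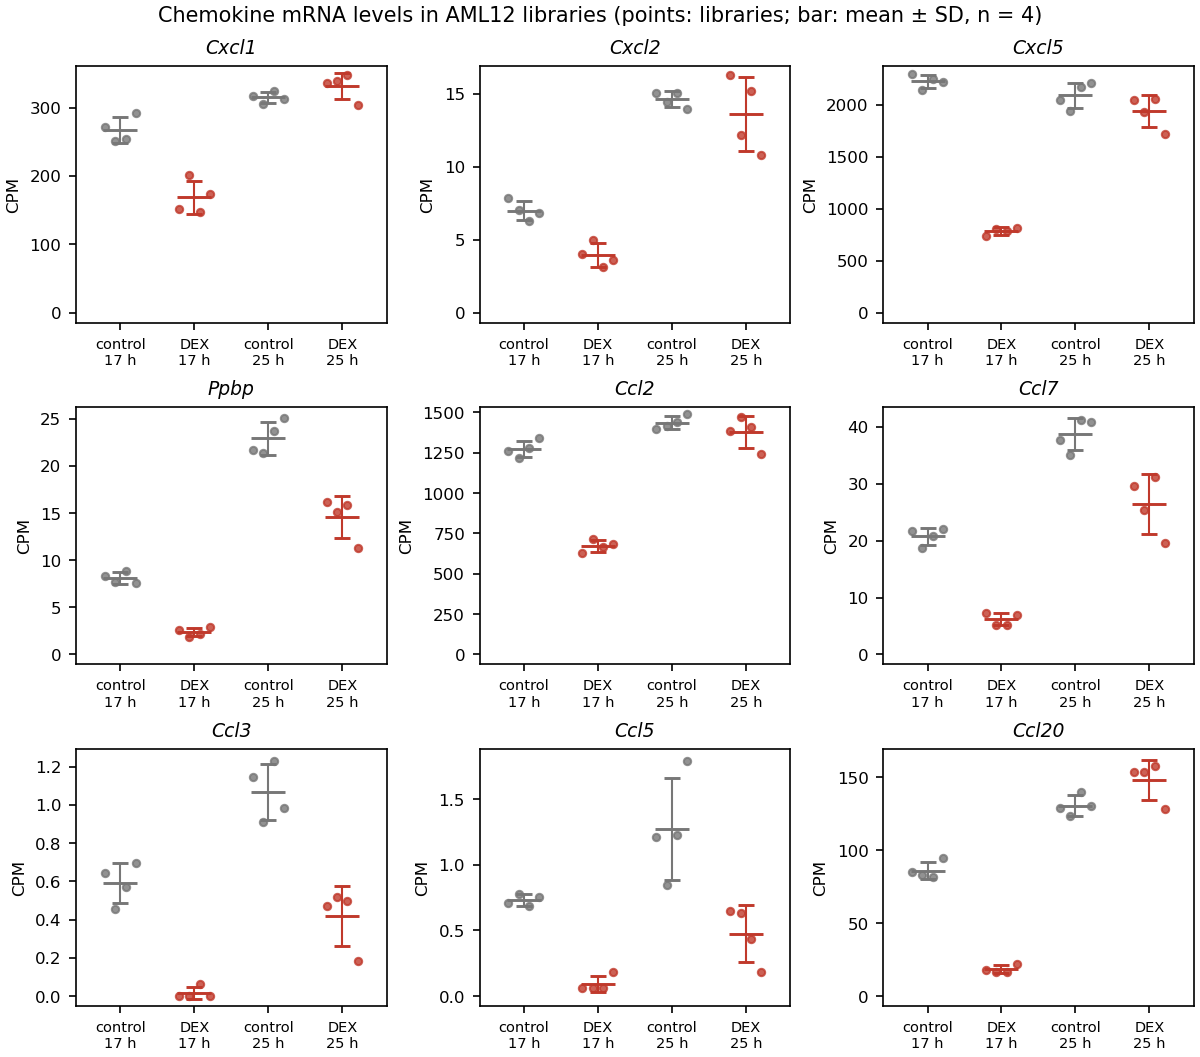
Levels of the 9 chemokine genes in AML12 libraries. Each point is a library, in CPM on a linear axis, with the mean and SD of the 4 libraries of each group as a bar, controls in grey and DEX cells in red. At 17 h the 4 DEX libraries lie below the 4 controls in all 9 panels, while at 25 h this is so for Ppbp, Ccl7, Ccl3 and Ccl5.

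At 25 h the same comparison gave a different picture: 4 of the 9 genes were lower in DEX cells, 0 were higher, and 5 were not called. Over all genes tested 11.7% were called, 4.96% as lower and 6.79% as higher in DEX cells. The median over the 9 was -0.11, against 0.00 over all genes.

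The genes that were lower at 25 h were Ppbp, Ccl7, Ccl3 and Ccl5. Ppbp stood at 21.7, 21.4, 23.7 and 25.1 CPM in controls and 16.1, 15.1, 15.8 and 11.3 CPM with DEX. The groups did not overlap, and the fold change was -0.65 ± 0.10 (adjusted p = 2.95e-05). Ccl7 stood at 37.7, 35.1, 41.2 and 40.9 CPM and 29.6, 25.3, 31.2 and 19.6 CPM, again without overlap, with -0.55 ± 0.10 (adjusted p = 0.00045). For Ccl3 the controls had 17, 15, 20 and 17 counts and the DEX libraries 8, 9, 8 and 3. Replicate 4 of the DEX cells was the lowest, and the fold change was -1.33 ± 0.29 (adjusted p = 0.00249). Ccl5 had 18, 14, 20 and 31 counts in controls and 11, 11, 7 and 3 in DEX cells, with -1.40 ± 0.30 (adjusted p = 0.00198). Here too the groups did not overlap, with replicate 4 highest in the controls and lowest in the DEX cells. DEX replicate 4 was the lowest of its group for all 9 genes. Without it the fold changes were -0.56 in Ppbp, -0.44 in Ccl7, -1.10 in Ccl3 and -1.15 in Ccl5, and each of the 4 passed.

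The abundant Cxcl5, Ccl2 and Cxcl1 were not called at 25 h, nor was the much less abundant Cxcl2. Cxcl5 had 2046, 1944, 2167 and 2205 CPM in controls and 2049, 1935, 2052 and 1718 CPM with DEX. These groups overlapped, and the 95% interval of the log2 difference was -0.22 to -0.00 (adjusted p = 0.197). Ccl2 had 1396, 1419, 1440.1 and 1488 CPM and 1382, 1474, 1410.5 and 1241 CPM, with an interval of -0.16 to 0.04 (adjusted p = 0.507). Cxcl1 had 317, 305, 325 and 313 CPM and 336, 339, 347 and 304 CPM, with an interval of -0.07 to 0.22 (adjusted p = 0.575). In both genes DEX replicate 4 was below all other libraries of either group. Cxcl2, at 15.0, 14.4, 15.1 and 13.9 CPM and 16.3, 12.2, 15.2 and 10.8 CPM, had an interval of -0.33 to 0.13 (adjusted p = 0.644).

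Ccl20 was the gene nearest to a call in the other direction. Its controls had 129, 123, 139.9 and 130.3 CPM and its DEX libraries 154, 153, 158 and 128 CPM, and DEX replicates 1, 2 and 3 were above all controls. The fold change of 0.18 ± 0.07 did not pass with all libraries (adjusted p = 0.0796). Without DEX replicate 4 it was 0.24 and passed (adjusted p = 0.0177), and it also passed without a low-count filter and in a fit of the compared libraries alone.

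Whether the DEX effect differed between the times was tested as the effect at 25 h minus that at 17 h. This difference was called higher for 8 of the 9 genes, where 16.2% of all genes were called and 7.91% called higher. In these genes the fall with DEX seen at 17 h was thus smaller, or no longer called, at 25 h. The difference was largest in Ccl3 (3.38 ± 0.80, adjusted p = 0.00445), whose DEX group at 17 h held 1 count and whose difference was 4.96 without the library with that count, DEX 17 h replicate 3, and next in Ccl20 (2.42 ± 0.11, adjusted p = 4.67e-14) and Cxcl5 (1.39 ± 0.07, adjusted p = 9.06e-13). It was 1.19 ± 0.17 in Ccl7, 1.10 ± 0.18 in Ppbp, 0.86 ± 0.07 in Ccl2, 0.74 ± 0.10 in Cxcl1 and 0.72 ± 0.18 in Cxcl2, with adjusted p from 1.63e-09 in Ccl2 to 0.00766 in Cxcl2. Ccl5 was not called (1.48 ± 0.62, adjusted p = 0.114). Without DEX 25 h replicate 4 its difference was 1.74, and it passed (adjusted p = 0.0414).

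**Figure D2:**
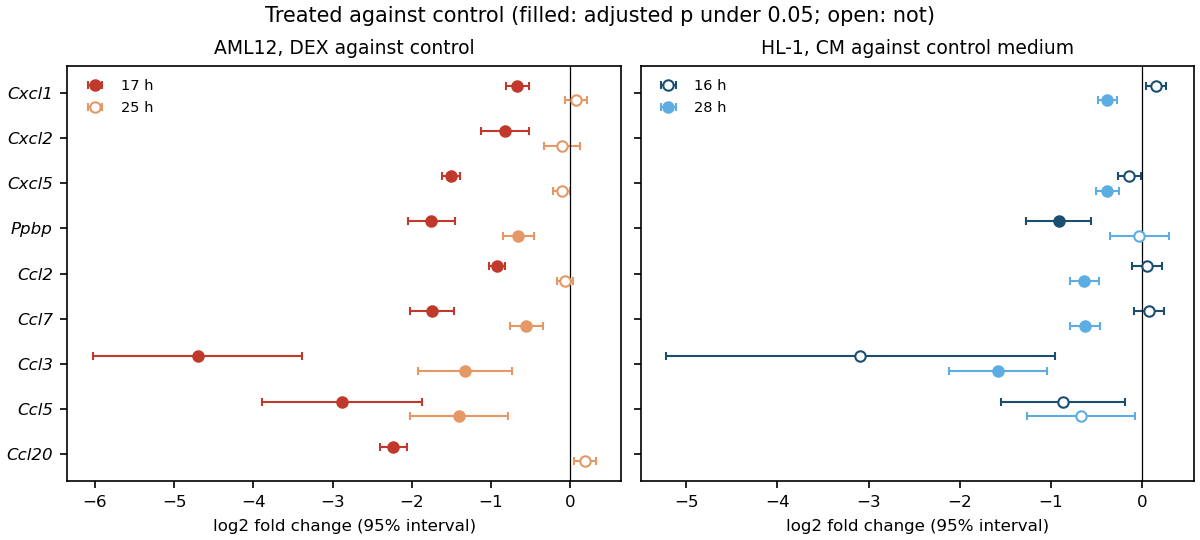
Log2 fold changes of treated against control cells for the 9 genes, with 95% intervals, in AML12 (left, 17 h and 25 h) and HL-1 (right, 16 h and 28 h). Filled points have an adjusted p under 0.05 and open points do not, and Cxcl2 and Ccl20 are absent at right because their HL-1 counts are 0. All 9 filled points of AML12 at 17 h lie below 0, and 4 of 9 are filled at 25 h. In HL-1 1 of 7 is filled at 16 h and 5 of 7 at 28 h.

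The control cells themselves differed between the times. From 17 h to 25 h 8 of the 9 genes rose in AML12 controls, in a comparison that called 43.5% of all genes and 22.1% higher. Ppbp rose the most (1.50 ± 0.10, adjusted p = 8.44e-11), from a mean of 8.10 to 22.9 CPM, followed by Cxcl2 (1.06 ± 0.12) and Ccl7 (0.90 ± 0.10). Ccl20 (0.60 ± 0.07), Cxcl1 (0.24 ± 0.07) and Ccl2 (0.17 ± 0.05) rose less. The rare Ccl3 (0.83 ± 0.27, adjusted p = 0.0142) and Ccl5 (0.80 ± 0.27, adjusted p = 0.02) passed narrowly, and DESeq2 gave 0.0695 and 0.07 for them. Without control 25 h replicate 4, the highest Ccl5 library with 31 counts, Ccl5 did not pass either (0.58, adjusted p = 0.115). Cxcl5 alone was not called (-0.09 ± 0.05, adjusted p = 0.165), though it was called lower when scaled by total counts only (adjusted p = 0.0321) or fitted with the compared libraries alone (adjusted p = 0.027).

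In DEX cells all 9 genes rose from 17 h to 25 h, where 56% of all genes were called and 27.8% called higher. The log2 changes were 3.02 ± 0.08 in Ccl20, 2.60 ± 0.13 in Ppbp, 2.09 ± 0.13 in Ccl7, 1.79 ± 0.13 in Cxcl2 and 1.30 ± 0.05 in Cxcl5. The smallest changes were those of Ccl2 (1.03 ± 0.05) and Cxcl1 (0.98 ± 0.07). Ccl3 went from 1 to 28 counts over the group, a ratio of 27.2 with an exact 95% interval of 4.49 to 1112. Ccl5 rose from 6 to 32 counts (2.28 ± 0.54, adjusted p = 0.00088), with groups that overlapped at 3 counts. In a fit of the compared libraries alone Ccl3 and Ccl5 were too rare to be tested, and the other 7 rose. These time contrasts share their libraries with the comparisons of DEX with control.

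The other chemokines and the pathway around them were read from lists of genes, fitted in the same table. At 17 h, 7 of 11 tested CXC ligands and 10 of 13 tested CC, CX3C and XC ligands were lower in DEX cells, with list medians of -0.95 and -1.01. The members make up 4 and 5 of these. Beyond them, Cxcl3, another neutrophil attractant of the chromosome 5 cluster, fell (-0.95 ± 0.07), as did the Cxcr3 ligand Cxcl11 (-1.41 ± 0.11) and Ccl9 (-1.48 ± 0.06), a monocyte attractant. Ccl17, a ligand of Ccr4, was the 1 ligand of both lists that rose (1.13 ± 0.41, adjusted p = 0.033), and it rose at 25 h too (1.25 ± 0.28, adjusted p = 0.00308). It is named for that direction, after its values were seen at 17 h. At 25 h the ligand lists held 1 of 11 and 3 of 13 lower genes, all of them members.

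Receptors for these ligands were scarce. Only 3 of the 12 chemokine receptor genes with counts in AML12 were frequent enough to test, none of them a receptor that signals for the 9 ligands. The decoy-like receptor gene Ccrl2 (-1.09 ± 0.28, adjusted p = 0.003) and the scavenger Ackr3 (-0.30 ± 0.10, adjusted p = 0.0144) were lower at 17 h. At 25 h none of the 3 passed.

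Upstream, 3 of 7 tested cytokine genes were lower at 17 h and 0 higher: the growth factors Csf1 (-0.70 ± 0.05) and Csf2 (-1.78 ± 0.23) and the alarmin Il33 (-0.74 ± 0.06). For all the lists at 17 h the background was 17.9% of genes lower and 20.5% higher. Of 26 cytokine and pattern receptors and adaptors 8 were lower and 5 higher, with a list median of -0.06 against 0.00 over all genes. Those with the smallest p were the lipopolysaccharide co-receptor Cd14 (-0.61 ± 0.04), the adaptor kinase Irak2 (-0.75 ± 0.05), the interleukin-1 receptor Il1r1 (-0.96 ± 0.11) and Tlr2 (-1.01 ± 0.11). In the NF-kB list 10 of 18 were lower and 2 higher, among them the subunit Nfkb1 (-0.73 ± 0.05), the co-regulator Nfkbiz (-0.69 ± 0.04), the inhibitor Tnip1 (-0.48 ± 0.04) and the subunit Relb (-0.36 ± 0.05). This list mixes activators and inhibitors, so its count has no single functional direction. Of the AP-1 and C/EBP factors 8 of 12 were lower and 3 higher, with Fosl2 (-0.71 ± 0.05), Atf3 (-0.88 ± 0.08) and Jun (-0.73 ± 0.08) lower and Fosl1 (1.03 ± 0.07) higher.

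Of 9 mRNA decay and stability factors 4 were higher and 3 lower at 17 h. Zfp36, which binds ATTTA pentamers and promotes decay, rose (1.55 ± 0.12, adjusted p = 1.71e-10) from 7.49 ± 0.85 to 21.9 ± 3.88 CPM, and its relative Zfp36l2 rose too (1.43 ± 0.08). Another relative, Zfp36l1, fell from 85.5 ± 8.58 to 42.8 ± 9.12 CPM, as did the endonuclease gene Zc3h12a (-0.93 ± 0.06). The glucocorticoid receptor and its anti-inflammatory targets had 7 of 12 genes higher, 2 lower and a median of 0.78. Tsc22d3 (1.73 ± 0.05), Fkbp5 (1.77 ± 0.06), Sgk1 (2.32 ± 0.07) and Klf9 (1.23 ± 0.05) led it. Of 10 other inflammatory products 7 were lower and 2 higher, with the prostaglandin synthase Ptgs2 at -1.64 ± 0.08, the nitric oxide synthase Nos2 at -1.98 ± 0.13 and the adhesion gene Vcam1 at -1.29 ± 0.06.

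At 25 h these lists were mostly not called, where 4.96% of all genes were lower and 6.79% higher. The cytokine list had 0 of 7, the NF-kB list 1 of 18 (Nfkb1, -0.23 ± 0.05), the decay list 1 of 9 (Zfp36l1, -0.31 ± 0.09), and the glucocorticoid list 3 higher and 1 lower of 12, with Fkbp5 at 0.56 ± 0.06 and Tsc22d3 at 0.20 ± 0.05. AP-1 and C/EBP factors (5 of 12 lower, 0 higher) and other inflammatory products (6 of 10 lower, 1 higher) had more calls, among them Fosl2 (-0.37 ± 0.04) and Ptgs2 (-0.65 ± 0.07). In the time contrast of control cells, which called 22.1% of all genes higher and 21.4% lower, 15 of 18 NF-kB genes rose and 0 fell, led by the inhibitor Nfkbia (1.05 ± 0.06), a gene that NF-kB itself induces.

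The summed hepatocyte markers also differed at 17 h, with 410 to 448 CPM in control libraries and 301 to 319 CPM in DEX libraries. The markers went both ways, as 4 of 8 tested were lower, 3 higher and 1 not called. At 25 h the sums were 402 to 443 CPM and 429 to 449 CPM. Leukocyte markers summed to 10.9 to 12.3 CPM in controls and 8.41 to 11.5 CPM in DEX cells at 17 h, with Adgre1 and Cd3e at 0 in both groups. At 25 h they summed to 9.60 to 11.5 CPM in controls and 13.8 to 15.2 CPM in DEX cells. Of the 2 leukocyte markers tested, 1 was called lower at 17 h and 1 higher at 25 h. The part of these markers in the chemokine differences was not tested.

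**Figure D3:**
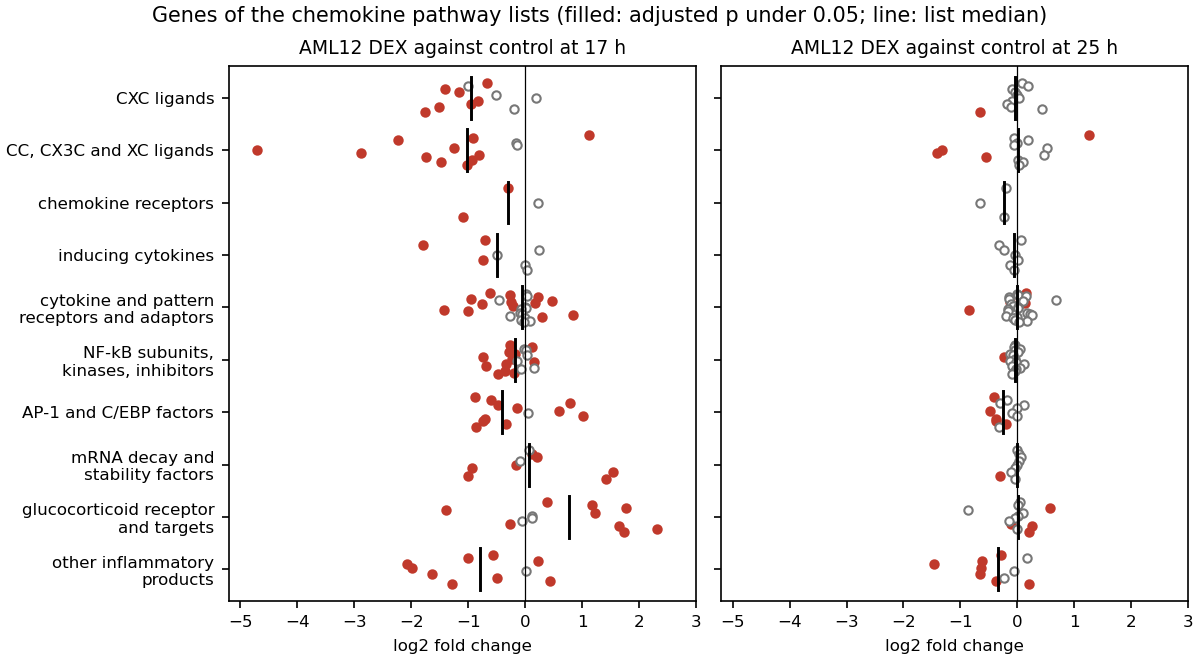
Log2 fold changes of DEX against control in AML12 at 17 h (left) and 25 h (right) for the tested genes of 10 lists, 1 point per gene, with the list median as a black line. Filled points have an adjusted p under 0.05. The medians of the ligand lists lie at -0.95 and -1.01 at 17 h, and at -0.05 and 0.01 at 25 h.

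The HL-1 cells expressed a narrower set of the 9 genes. Cxcl5 led in all 4 groups per kilobase of exon, at 147 ± 12.6 CPM per kb in controls at 16 h. At that time it was followed by Ccl7 (114 ± 8.15), Ccl2 (77.7 ± 8.27) and Cxcl1 (54.2 ± 6.35), and the libraries of these neighbours did not overlap. In the 28 h controls the order was Cxcl5 (491 ± 21.8), Cxcl1 (183 ± 5.01), Ccl2 (129 ± 6.16) and Ccl7 (118 ± 8.80), with overlap between Ccl2 and Ccl7. Ppbp, Ccl3 and Ccl5 stayed under 5 CPM per kb in each group mean. Cxcl2 and Ccl20 had 0 counts in all 16 libraries, which allows at most 0.0404 to 0.046 CPM over a group by a limit of 3 counts. Ccl20 was thus not detectable in the line, while AML12 had 18.3 to 148 CPM of it in its group means. Ccl7 group means were 61.0 to 96.3 CPM in HL-1 and 6.20 to 38.7 CPM in AML12. The counts of the 2 lines come from separate tables, so no test was made between them.

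**Figure D4:**
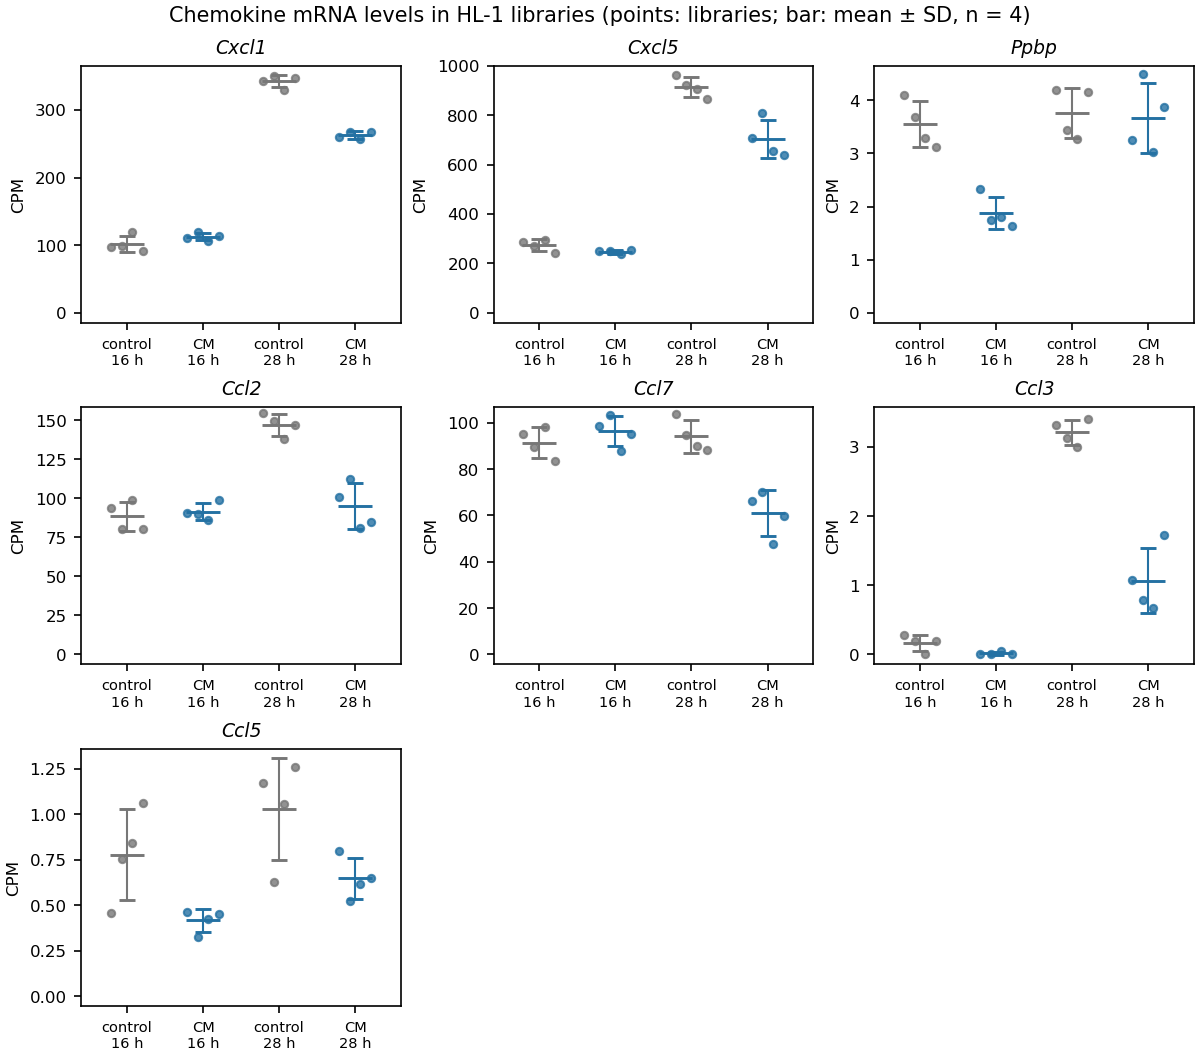
Levels of the 7 chemokine genes with counts in HL-1 libraries. Each point is a library, in CPM on a linear axis, with the mean and SD of the 4 libraries of each group as a bar, control medium in grey and CM in blue. At 28 h the 4 CM libraries lie below the 4 controls for Cxcl1, Cxcl5, Ccl2, Ccl7 and Ccl3, and at 16 h for Ppbp.

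The comparison in HL-1 asked how cells in CM differ from cells in control medium. At 16 h 1 of the 7 genes, Ppbp, was lower in CM and 0 were higher, where 2.03% of 14450 genes tested were called and 1.2% called lower. Ppbp had 4.10, 3.69, 3.29 and 3.12 CPM in controls and 2.32, 1.74, 1.81 and 1.63 CPM in CM. All CM libraries were below all controls, and the fold change was -0.92 ± 0.17 (adjusted p = 0.00283).

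The other 6 were not called, and their groups overlapped at 16 h. Cxcl1 had 97.6, 98.8, 119 and 91.3 CPM in controls and 111, 119, 107 and 114 CPM in CM, with a 95% interval of 0.04 to 0.26 (adjusted p = 0.232). The highest control was replicate 3, the library that stood apart. Without it the fold change was 0.22 and passed (adjusted p = 0.00381), as it did without a low-count filter (adjusted p = 0.0462), in both cases as higher in CM. Cxcl5 stood at 288, 269, 295 and 242 CPM in controls and 249, 248, 237 and 256 CPM in CM, with -0.14 ± 0.06 (adjusted p = 0.352), and was called lower without a low-count filter (adjusted p = 0.0465). Ccl2 (94.0, 80.5, 98.7 and 80.4 CPM in controls and 90.8, 90.3, 86.0 and 98.8 CPM in CM) had an interval of -0.12 to 0.21. Ccl7 (95.2, 89.4, 98.0 and 83.3 and 98.7, 103, 88.0 and 95.4 CPM) had an interval of -0.09 to 0.24. For both genes the CM libraries lay inside or next to the range of the controls. Ccl3 had 5, 3, 0 and 3 counts in controls and 0, 0, 1 and 0 in CM, a ratio of 12.6 of control over CM with an exact 95% interval of 1.82 to 540, and did not pass the test over all genes (adjusted p = 0.165). Ccl5 had 8, 12, 13 and 17 counts in controls and 9, 6, 8 and 8 in CM (adjusted p = 0.254).

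At 28 h 5 of the 7 genes were lower in CM, each with all 4 CM libraries below the 4 controls, and 0 were higher. Over all genes tested, 1.92% were called, 0.706% higher and 1.22% lower. The median over the 7 was -0.63, against -0.01 over all genes.

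Ccl2 and Ccl7, the monocyte ligands, changed by nearly the same factor. Ccl2 stood at 155, 149.7, 138 and 147 CPM in controls and 101, 113, 80.9 and 84.7 CPM in CM. The groups were well apart, and the fold change was -0.63 ± 0.08 (adjusted p = 1.11e-05). Ccl7 stood at 104, 94.9, 89.9 and 88.1 CPM and 66.2, 70.0, 47.6 and 60.0 CPM, again without overlap, with -0.63 ± 0.08 (adjusted p = 2.35e-05). Cxcl1 had 343, 351, 329 and 348 CPM in controls and 259, 267, 256 and 267 CPM in CM. The spread within each group was small, and the fold change was -0.38 ± 0.05 (adjusted p = 3.45e-05). Cxcl5 had 964, 921, 905 and 866 CPM and 706, 809, 655 and 638 CPM, with CM replicate 2 nearest to the controls, and -0.38 ± 0.06 (adjusted p = 0.000329). Ccl3 had 54, 50, 54 and 54 counts in controls and 19, 15, 12 and 32 in CM. It showed the largest change of the 5 (-1.58 ± 0.26, adjusted p = 0.000628), with CM replicate 4 the highest of its group.

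Ppbp, which was lower in CM at 16 h, had 4.19, 3.44, 3.28 and 4.16 CPM in controls and 3.25, 4.51, 3.03 and 3.88 CPM in CM at 28 h. These groups overlapped, and the interval was -0.35 to 0.29 (adjusted p = 0.959). Ccl5 had 19, 10, 19 and 20 counts in controls and 14, 10, 11 and 12 in CM, with -0.67 ± 0.29 (adjusted p = 0.318).

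The CM effect at 28 h minus that at 16 h was called lower for 3 of the 7 genes, in a test that called 0.277% of all genes, 40 in number, and 0.173% lower. These were Cxcl1 (-0.53 ± 0.08, adjusted p = 0.000303), Ccl2 (-0.68 ± 0.11, adjusted p = 0.00204) and Ccl7 (-0.70 ± 0.11, adjusted p = 0.00191). The difference in Ppbp had the opposite sign and was not called (0.88 ± 0.23, adjusted p = 0.161), nor were Cxcl5 (-0.24 ± 0.09, adjusted p = 0.488, or 0.00383 without a low-count filter), Ccl3 (1.51 ± 1.03, adjusted p = 0.873) and Ccl5 (0.20 ± 0.44, adjusted p = 0.979).

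The largest of the called differences in HL-1 was between the times, in Ccl3, Cxcl1 and Cxcl5. In control medium 4 of the 7 genes rose from 16 h to 28 h and 0 fell, where 62.8% of all genes were called and 31.5% called higher, so that the count by itself does not set the members apart. Cxcl1 (1.75 ± 0.05, adjusted p = 3.83e-19) and Cxcl5 (1.74 ± 0.06, adjusted p = 6.5e-18) rose by nearly the same factor, Cxcl1 from a mean of 102 to 343 CPM and Cxcl5 from 273 to 914 CPM. Ccl2 rose less (0.74 ± 0.08), and Ccl3 went from 11 to 212 counts over the group (4.19 ± 0.38). Ccl7, the neighbour of Ccl2, was not called, with an interval of -0.12 to 0.21 (adjusted p = 0.672). Ppbp (0.08 ± 0.16) and Ccl5 (0.41 ± 0.29) were not called either.

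In CM 4 of the 7 rose and 1 fell over the same hours, where 65.4% of all genes were called, 32.6% higher and 32.9% lower. Cxcl5 (1.50 ± 0.06), Cxcl1 (1.22 ± 0.05) and Ppbp (0.96 ± 0.17) rose, as did Ccl3 from 1 to 78 counts, a ratio of 79.4 with an exact 95% interval of 13.8 to 3174. Ccl7 fell (-0.66 ± 0.08, adjusted p = 8.59e-08), from a mean of 96.3 to 61.0 CPM. Ccl2 (0.05 ± 0.08, adjusted p = 0.575) and Ccl5 (0.62 ± 0.33, adjusted p = 0.108) were not called. The sum over the members was 559 ± 48.6 CPM in controls and 550 ± 21.3 CPM in CM at 16 h, and 1506 ± 53.7 CPM and 1126 ± 102 CPM at 28 h.

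**Figure D5:**
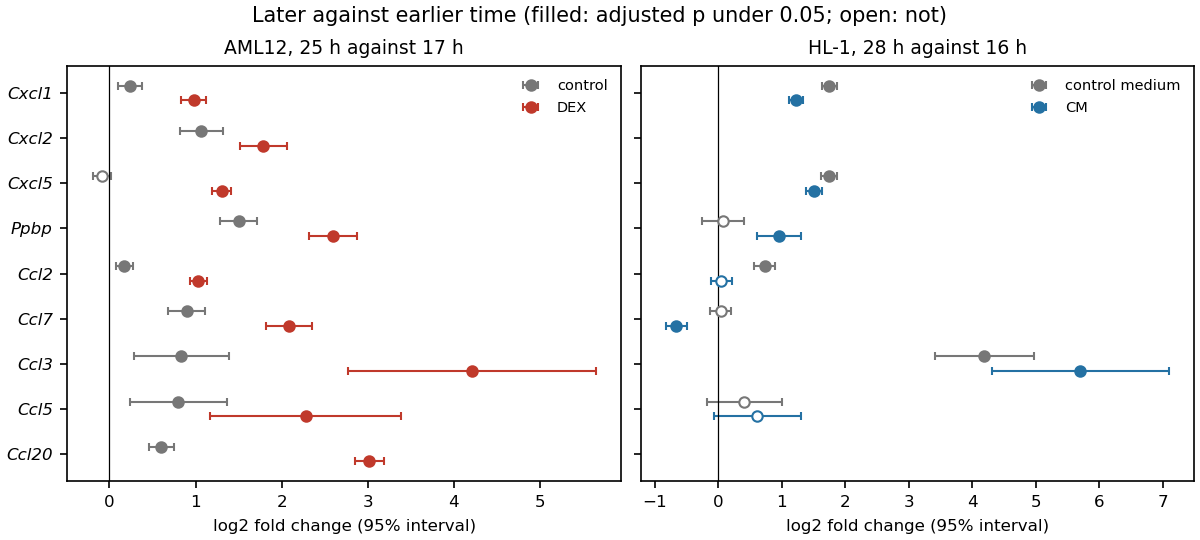
Log2 fold changes of the later against the earlier time for the 9 genes, with 95% intervals, in AML12 (left, 25 h against 17 h) and HL-1 (right, 28 h against 16 h). Filled points have an adjusted p under 0.05, and Cxcl2 and Ccl20 are absent at right because their HL-1 counts are 0. In AML12 8 of 9 points are filled in controls and 9 of 9 in DEX cells. In HL-1 the 1 filled point below 0 is that of Ccl7 in CM.

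Calls were uneven across the lists in HL-1 at 16 h, where 2.03% of all genes were called. CXC ligands had 1 of 6 lower (Ppbp), and the CC, CX3C and XC ligands 0 of 8. The cytokine list had 1 of 7 lower (Il33, -0.36 ± 0.06), the cytokine receptor list 1 of 25 lower (Il1r1, -0.29 ± 0.04) and the NF-kB list 0 of 18. In the glucocorticoid list 3 of 12 were higher in CM, with Fkbp5 at 0.34 ± 0.05, Tsc22d3 at 0.31 ± 0.07 and the clock gene Per1 at 0.41 ± 0.09. Other inflammatory products had 3 of 9 higher in CM, with C3 at 1.24 ± 0.14 and the lipocalin gene Lcn2 at 3.20 ± 0.41, and 1 lower, Plau (-0.26 ± 0.05), with a list median of 0.25. In the decay list 1 of 9 was higher (Zfp36l1, 0.23 ± 0.06). At 28 h Fkbp5 was again higher (0.26 ± 0.05), while Sgk1 (-0.18 ± 0.04) and the annexin gene Anxa1 (-0.16 ± 0.04) were lower.

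At 28 h, 1.22% of all genes were lower in CM and 0.706% higher. The CXC list had 2 of 6 lower and the CC, CX3C and XC list 3 of 8, all of them members. In the cytokine list 3 of 7 were lower: Il33 (-0.37 ± 0.05), interleukin 6 (Il6, -0.81 ± 0.13) and interleukin 1 alpha (Il1a, -1.33 ± 0.25). Cd14 (-0.37 ± 0.07) and the Il33 receptor Il1rl1 (-1.55 ± 0.31) were the 2 of 25 receptors and adaptors that were called, both lower. In the NF-kB list Nfkbiz was the 1 of 18 (-0.21 ± 0.05), and in the decay list 0 of 9 were called. Of 9 other inflammatory products 3 were lower, Ptgs2 (-0.53 ± 0.05), Vcam1 (-0.34 ± 0.05) and Saa3 (-0.99 ± 0.19), and 2 higher, with the complement gene C3 at 0.67 ± 0.07.

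Over time in control medium many genes of the inflammatory lists rose, in a contrast that called 62.8% of all genes, 31.5% higher and 31.3% lower. Of 7 cytokine genes 6 rose and 1 fell (Csf1, -0.21 ± 0.04), with Il33 at 1.90 ± 0.06 and Il6 at 2.64 ± 0.17, and 10 of 18 NF-kB genes rose and 2 fell, with Nfkbiz at 1.90 ± 0.05 and Tnfaip3, an inhibitor, at 1.45 ± 0.07. Among other CXC ligands Cxcl15 rose (3.11 ± 0.14) and Cxcl12, a homeostatic ligand, fell (-0.81 ± 0.06). Among the CC ligands Ccl9 rose (1.12 ± 0.08), and among receptors Ackr3 (1.30 ± 0.06). The summed fibroblast markers differed between the times as well, with 1937 to 2230.3 CPM in the 16 h controls and 3117 to 3329 CPM in the 28 h controls. In CM they summed to 1799.8 to 2028 CPM and 2830.0 to 3269.6 CPM. The cardiomyocyte markers summed to 29.6 to 33.9 CPM in controls and 47.6 to 51.4 CPM in CM at 16 h, and to 35.4 to 38.4 CPM and 53.7 to 60.1 CPM at 28 h. Leukocyte markers summed to 1.69 to 2.10 CPM in controls and 2.51 to 3.04 CPM in CM at 16 h, and to 2.28 to 3.34 CPM and 2.41 to 3.13 CPM at 28 h. The part of these markers in the chemokine differences was not tested.

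The genes whose log2 CPM followed a member most closely over the 16 libraries of a line were sought by Pearson's r, with a mean of at least 1 CPM required of the member. These r values are descriptions over libraries that share groups and times. In AML12, out of 12722 genes, Ccl20 was matched by Ccl9 (0.997), the guanylate-binding gene Gbp9 (0.993) and the apoptosis inhibitor Birc3 (0.991). Cxcl5 was closest to Fchsd2 (0.988), Cxcl1 to Samd9l (0.982), Cxcl2 to Slco3a1 (0.987), Ccl2 to the integrin Itga1 (0.991) and Ppbp to the calponin Cnn1 (0.994). Ccl7 was closest to another member, Ppbp (0.985). In HL-1, out of 12647 genes, Cxcl1 was matched by Zc3h12a (0.991) and Nfkbiz (0.990), and Cxcl5 by Ube2l6 (0.993). Ccl3 was closest to Sfrp4 (0.975), Ppbp to Ermp1 (0.930), Ccl2 to Nab1 (0.874) and Ptgs2 (0.872), and Ccl7 to Fut8 (0.872). Ccl2 and Ccl7 thus had no partner above 0.9 in HL-1, while all members compared in AML12 had one above 0.98.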

How the data were processed

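The members and the gene lists were chosen with earlier results of these data known. The authors deposited read counts per gene, 1 table for each line, as whole numbers that were not normalized. FastQC 0.11.8 and STAR were used with mm10 and GRCm38, per the submitters' processing notes; which program counted the reads, on which strand and with which annotation release is not stated in the sources at hand. Groups come from the labels' titles. Genes kept by filterByExpr were tested (14114 in AML12, 14450 in HL-1) in edgeR 4.0.16 (R 4.3.3) by its quasi-likelihood test after TMM scaling, with 1 mean per group over the 16 libraries of a line, and Benjamini-Hochberg adjustment over all genes tested. The gene lists of the 2 tables differ (27843 and 55414 rows), and the lines are not tested against each other. Per-kilobase levels use the union of exons in GENCODE M21. Ratios against 1 count have exact binomial 95% intervals, which, like limits of 3 counts, take in counting error alone, since PCR copies are not separate molecules.

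All 9 members were named in every comparison where they had counts, and up to 4 genes of each list with the smallest p in a comparison, of which the text gives some; the 3 most correlated genes were found for each member. Alternatives were DESeq2 1.42.0, voom of limma 3.58.1, scaling by RLE or by total counts, testing without a low-count filter, a block on the replicate number, fitting the compared libraries by themselves, and leaving out each library. The test was tried on simulated counts first. Members could share reads with overlapping genes, since the strand setting is unknown.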

Additional observations from a re-analysis of the deposited data

Results flagged for a closer look

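In 5 of 64 sets of 4 libraries a library lay far from the other 3. The rule flags about 1 in 20 by chance for independent sets of continuous values. That rate does not hold for sets of a few counts, such as those of Ccl3 and Ccl5, and the sets share libraries. In AML12 Ccl3 was at 0.0610 CPM in DEX 17 h replicate 3, a single count, with the others at 0, and at 0.183 CPM in DEX 25 h replicate 4, with the others at 0.469 to 0.520 CPM. Ccl5 was at 0.185 CPM in DEX 17 h replicate 4, against 0.0605 to 0.0634 CPM, and Ccl20 at 128 CPM in DEX 25 h replicate 4, against 153 to 158 CPM. In HL-1 Ccl3 was at 0.0533 CPM in CM 16 h replicate 3, a single count, with the others at 0. DEX 25 h replicate 4 was the lowest of its group for all 9 genes, and the called fold changes at 25 h without it are given beside them.

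The effect of treatment differed between the times by its own test in 11 cases. In AML12 the DEX effect at 25 h minus that at 17 h was 0.74 in Cxcl1, 0.72 in Cxcl2, 1.39 in Cxcl5, 1.10 in Ppbp, 0.86 in Ccl2, 1.19 in Ccl7, 3.38 in Ccl3 and 2.42 in Ccl20, on the log2 scale. In HL-1 the CM effect at 28 h minus that at 16 h was -0.53 in Cxcl1, -0.68 in Ccl2 and -0.70 in Ccl7.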

How the results depend on the processing

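Of 80 results for single members 56 were called. The 80 come from 10 comparisons that called from 0.277 to 65.4% of all genes tested, so this count by itself does not set the members apart. Leaving out each library in turn gave 768 values, of which 756 kept their direction and their side of the threshold, 3 passed newly, 1 no longer passed and 8 changed sign. The 8 belong to 4 results that were not called: Ccl2 in CM against control medium at 16 h (-0.00295 to 0.10), Ppbp in the same comparison at 28 h (-0.149 to 0.0489), Ccl7 in HL-1 controls over time (-0.0104 to 0.0713) and Ccl2 in CM over time (-0.0429 to 0.121). The other settings gave 530 values, of which 521 were the same, 7 passed newly and 2 no longer passed. For CM against control medium at 16 h, 3 members were called without a low-count filter, against 1, and 1 to 2 with single libraries left out, 2 of them without HL-1 control 16 h replicate 3. The ratio of Cxcl5 to Ccl2 in AML12 controls at 17 h was 1.07 per kilobase and 1.75 in CPM not divided by length. With the replicate number as a block 80 of 80 results kept their call, and 9 and 4 members were called for DEX against control at 17 h and 25 h, and 1 and 5 for CM against control medium. The deviations of libraries with the same number correlated by -0.12 to 0.12. Correlations this low do not show a pairing by number, but with 4 libraries in a group they cannot exclude one. Among all genes, the difference of CM effects called 40, against 97 without a low-count filter and 68 with DESeq2. CM against control medium at 28 h called 278, against 179 without control replicate 1 and 170 without CM replicate 3. Scaled by total counts only, 62.2% of the calls in the difference of DEX effects were higher (48.9% with TMM), and 39.5% in AML12 controls over time (50.8% with TMM). DESeq2 gave no adjusted p to Ccl3 and Ccl5 for DEX against control at 25 h, where 2 of the other 7 members passed, nor to Ccl3 for the difference of DEX effects, where 7 of the other 8 passed. In fits of the compared libraries alone, 8 members were called for DEX against control at 17 h and 7 for DEX cells over time, because Ccl3 and, over time, Ccl5 were not tested there. Ccl3 and Ccl5 rest on 0 to 54 counts a library, which limits their precision.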
